A study of Homo sapiens with 2 samples.

Results

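A set of 9 genes that define the luminal lineage of the breast were followed through a map of JARID2 on the chromatin of MDA-MB-231 cells, a triple-negative breast cancer line kept untreated in culture. The genes were ESR1, PGR, GATA3, FOXA1, XBP1, ERBB2, ERBB3, SPDEF and GREB1, chosen by name as luminal genes that are silent or low in triple-negative cells. The list of 67071 peaks, called by the authors in 1 library precipitated with a polyclonal JARID2 antibody, gave 24 peaks to 7 of these 9 genes. The labels also name 1 input library of the same cells without antibody, whose own values were not used here. The file holds no expression values, so the silence of these genes was not measured here. A single ChIP library gives neither replicate nor test. Each peak's tag count, fold enrichment over the background of the peak caller and false discovery rate (FDR, in percent) were taken as the authors gave them, and all peak positions are on hg19.

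Luminal cells line the milk ducts and carry the oestrogen and progesterone receptors encoded by ESR1 and PGR. FOXA1 and GATA3 are transcription factors that open and hold the enhancers used by the oestrogen receptor, while XBP1, SPDEF and GREB1 are expressed with or under that receptor, and ERBB2 and ERBB3 encode partner receptor kinases of the luminal epithelium. JARID2 joins the core of the Polycomb complex PRC2, which methylates histone tails at silent developmental genes and is often found at promoters rich in CpG dinucleotides.

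The start-site sequences are shown first because the members differ widely in CpG content. RefSeq windows of 300 bases (250 before the start site and 50 after it, GRCh38.p14, printed 5′ to 3′ on the gene's strand) were found for 7 of the 9 genes, 20 windows in all. ERBB3 and GREB1 were not matched. CpG dinucleotides are in capitals. FOXA1 stands for a member with several peaks, XBP1 for the window with the most CpG, ERBB2 for a member without a peak and SPDEF for a member with few CpG.
FOXA1, chr14:37595200-37595499, minus strand: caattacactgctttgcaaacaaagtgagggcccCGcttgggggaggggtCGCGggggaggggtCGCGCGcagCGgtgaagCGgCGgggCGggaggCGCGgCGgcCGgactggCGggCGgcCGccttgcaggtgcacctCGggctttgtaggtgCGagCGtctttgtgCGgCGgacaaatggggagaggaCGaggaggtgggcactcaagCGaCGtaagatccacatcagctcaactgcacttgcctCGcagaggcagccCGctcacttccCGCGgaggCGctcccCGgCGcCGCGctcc
XBP1, chr22:28800520-28800819, minus strand: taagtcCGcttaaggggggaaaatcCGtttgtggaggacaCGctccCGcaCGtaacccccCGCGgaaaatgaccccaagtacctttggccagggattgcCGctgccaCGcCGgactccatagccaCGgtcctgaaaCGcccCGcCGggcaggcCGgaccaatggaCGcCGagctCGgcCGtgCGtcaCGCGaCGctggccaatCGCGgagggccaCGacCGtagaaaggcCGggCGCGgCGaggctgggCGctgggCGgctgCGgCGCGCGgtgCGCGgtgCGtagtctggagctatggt
ERBB2, chr17:39687844-39688143, plus strand: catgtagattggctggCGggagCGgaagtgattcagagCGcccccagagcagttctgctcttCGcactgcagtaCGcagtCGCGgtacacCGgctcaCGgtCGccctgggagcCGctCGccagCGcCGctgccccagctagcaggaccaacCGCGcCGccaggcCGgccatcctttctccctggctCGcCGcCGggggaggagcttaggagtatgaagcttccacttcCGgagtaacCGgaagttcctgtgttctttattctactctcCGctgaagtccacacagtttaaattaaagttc
SPDEF, chr6:34556280-34556579, minus strand: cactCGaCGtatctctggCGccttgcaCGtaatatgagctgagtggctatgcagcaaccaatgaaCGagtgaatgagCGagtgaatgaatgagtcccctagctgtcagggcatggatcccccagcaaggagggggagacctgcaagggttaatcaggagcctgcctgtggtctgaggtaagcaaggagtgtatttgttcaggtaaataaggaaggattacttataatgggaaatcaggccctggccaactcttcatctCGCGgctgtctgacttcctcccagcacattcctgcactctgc

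The windows held 34 CpG at FOXA1, 40 at the XBP1 start shown, 24 at ERBB2 and 8 at SPDEF. The median over all 35116 RefSeq windows was 14, with an interquartile range of 4 to 28. The 6 ESR1 windows held between 4 and 17 CpG, the 6 GATA3 windows between 5 and 36 and the 3 PGR windows between 7 and 17. XBP1 and GATA3, with the most CpG-rich windows, had no peak of the promoter class, FOXA1 had 1, and ERBB2 had no peak. Whether CpG content goes with peaks was not tested over these genes. The start sites listed with the peaks were not matched to these windows and can differ from them. Letters of 4 further motifs were searched on both strands. The oestrogen response element, GGTCA and TGACC with any 3 bases between them, was found in 0 of the 20 member windows and in 0.057% of all windows, and the forkhead motif TGTTTAC in 0 of 20 against 3.42%. GGGCGG, the GC box, was found in 12 of 20 member windows, from 5 genes, against 45.0% of all windows. GAGAG was found in 11 of 20, from 6 genes, against 61.6%. Member windows are not independent, since PGR windows at chr11:101129028-101129327 and chr11:101129014-101129313 share most of their bases. The GC box overlaps CpG, since its letters contain that pair. These matches describe only the letters in these windows.

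The peaks of the luminal genes were mostly as weak as the typical peak of the list. Of the 9 genes, 7 had any peak, where 56.3% of 20037 protein-coding genes did. At an FDR of at most 5%, 1 of the 9 remained, FOXA1, where 3.01% of protein-coding genes did. FOXA1 was also the only one at an FDR of at most 20%, which 8.03% of protein-coding genes reached, and at a −log10 p (read from the deposited score) of at least 5, which 18.3% reached. Over the 24 peaks the median was 13.5 tags (10 to 32) and a fold enrichment of 5.46 (4.24 to 8.83), against a median of 12 tags and 5.95-fold over all peaks. The members' FDRs had a median of 45.4%, against 44.2% over the list, and 18 of the 24 lay above 40%, as did 70.3% of all peaks. Fold enrichment takes repeated values at such low tag counts. A value of 5.3 was given to 4 member peaks and to 8.85% of all peaks, and 7.06 to 3 member peaks and 8.51% of all.

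**Figure D1:**
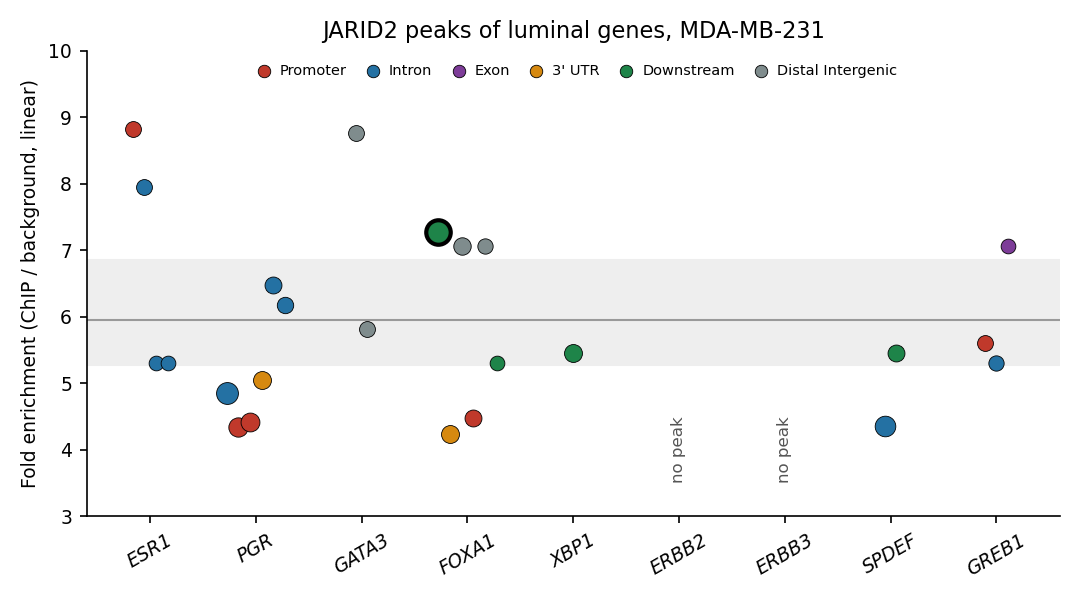
Fold enrichment (vertical axis, linear) of each peak given to the 9 luminal genes (horizontal axis), coloured by annotation class, with point area growing with the tag count and a thick outline for an FDR of at most 5%. The grey line and band are the median of 5.95 and the interquartile range of all peaks, and the only thickly outlined point is the FOXA1 peak of 32 tags.

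**Figure D2:**
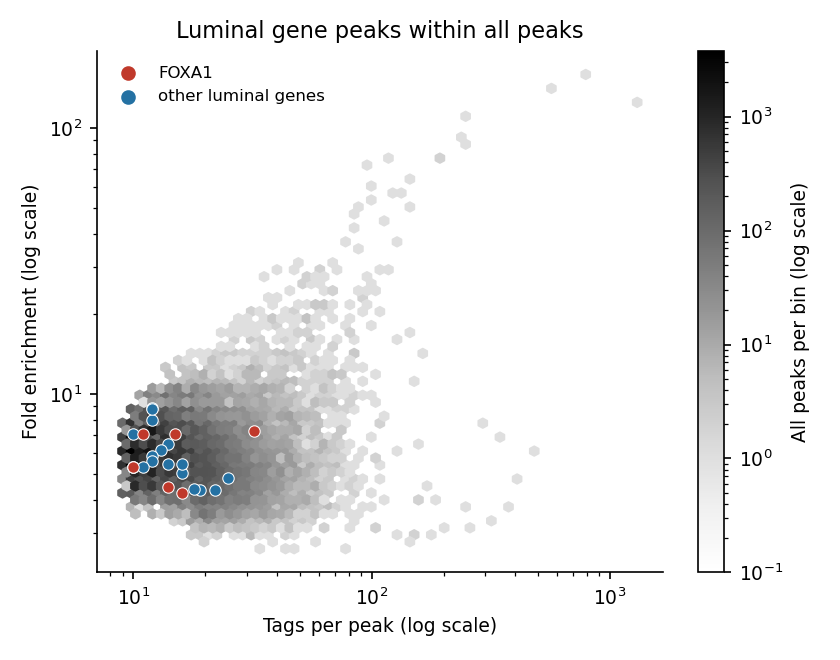
Tags per peak against fold enrichment, both on log axes, for all 67071 peaks (grey bins, darker for more peaks) and for the 6 FOXA1 peaks (red) and the 18 peaks of the other luminal genes (blue). The luminal points lie within the dense lower left of the list, between 10 and 32 tags.

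Peaks of the promoter class, which reaches 3 kb from a transcription start site (TSS), were given to 4 of the 9 genes, where 33.1% of protein-coding genes had one. The 4 were ESR1, PGR, FOXA1 and GREB1, with 5 such peaks between them. Each of the 5 lay downstream of the TSS of its listed transcript. In the bin of up to 1 kb only ESR1 remained, 1 of 9, where 22.3% of protein-coding genes did. The FDRs of the 5 promoter peaks ran from 39.6% to 48.0%, and none reached an FDR of 20%. By class, 5 of 24 member peaks (20.8%, 95% exact interval 7.13 to 42.2) were promoter peaks, against 20.5% of all peaks, and 8 (33.3%, 15.6 to 55.3) were intronic, against 37.2%. Peaks just beyond a gene's end made up 4 of 24 (16.7%, 4.74 to 37.4), against 1.71% of all peaks, and 2 of 24 (8.33%, 1.03 to 27.0) lay in a 3′ UTR, against 1.52%. These 6 peaks came from FOXA1 (3), and from XBP1, SPDEF and PGR (1 each), so FOXA1 alone carried 3 of the 6. The intervals treat peaks as independent, which neighbouring peaks of 1 gene are not, so they do not measure the spread over genes. Whether luminal genes differ from other genes in these classes was not tested.

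How the distance to the TSS was written bears on these classes. For all 32626 peaks off the TSS of a plus-strand gene, the deposited distance was that of the nearer peak edge, within 1 bp. For all 30777 such peaks of minus-strand genes it was that of the farther edge, and 758 of these had their nearer edge within 3 kb of the TSS without being in the promoter class. PGR, FOXA1, XBP1 and SPDEF are minus-strand genes. By the nearer edge, the XBP1 peak lay 2619 bp from its listed TSS and a second FOXA1 peak 2693 bp, so that 5 of the 9 genes had a peak within 3 kb of a listed TSS. The same count covered 34.1% of protein-coding genes. The listed XBP1 transcript spans only 2487 bp, so the XBP1 peak lay beyond its end.

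ESR1, the oestrogen receptor gene, had the promoter peak of largest fold enrichment among the members and only low tag counts. The peak in the 1 kb bin (hg19, chr6:152012235-152012713) held 12 tags, for which the 95% Poisson interval is 6.2 to 21.0, with a fold enrichment of 8.83 and an FDR of 39.6%. Its nearer edge lay 604 bp downstream of the TSS of ENST00000404742. A fold enrichment that high was reached by 3.71% of all peaks, and by the best promoter peak of 9.51% of the 6635 genes with one. By −log10 p, which was 4.20, it was unremarkable, since 26.9% of all peaks scored at least as high. The other 3 ESR1 peaks were intronic, at 7.95-fold with 12 tags (chr6:152217723-152218300, intron 5 of 9) and at 5.3-fold with 10 tags each (chr6:152025671-152026139 and chr6:152244092-152244549). A further 2 peaks in introns 8 and 9 of 9 of ESR1 carried the name of the neighbouring gene SYNE1, with 9 and 11 tags and FDRs of 48.1% and 47.0%. ESR1 is long, its longest listed transcript spanning 180403 bp, and 12.2% of protein-coding genes had at least 4 peaks.

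PGR, the progesterone receptor gene and a direct target of the oestrogen receptor, had 6 peaks, a number that 5.67% of protein-coding genes reached. Its tag counts were above the list's median in all 6 peaks, while its fold enrichments were below the list's median in 4 of 6 peaks. The peak with most tags, 25 (16.2 to 36.9), lay in intron 5 of 7 (chr11:100949712-100950789) at 4.85-fold and an FDR of 45.2%. The 2 promoter-class peaks had 18 tags at 4.41-fold (chr11:100997680-100998342) and 19 tags at 4.34-fold (chr11:100932483-100933224). The nearer edge of the first lay 1459 bp inside ENST00000263463, the longer listed transcript. The second lay 1532 bp inside the shorter ENST00000533207. A pair of peaks in intron 6 of 7 had 6.47-fold with 14 tags and 6.18-fold with 13 tags, and a peak in the 3′ UTR had 5.05-fold with 16 tags. Intron numbers are as deposited, and for this minus-strand gene they run against transcription. The intron 6 peaks lay 6520 and 23263 bp inside ENST00000263463, nearer its TSS than the intron 5 peak. All 6 FDRs fell between 38.6% and 47.2%.

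The FOXA1 locus differed from the other members in how closely its peaks were packed. FOXA1, the pioneer factor of the oestrogen receptor, had 6 peaks within a short locus, its listed transcript spanning 3170 bp. Among 3544 protein-coding genes with a peak whose longest listed transcript was under 10 kb, 44 (1.24%) had 6 or more, and the median was 1. Each FOXA1 peak had between 3 and 6 other summits within 5 kb of its own, whatever their names, while the other 18 member peaks had 0 or 1. Over the whole list 265 peaks (0.395%) had 3 or more. The only 2 peaks of the list with 6 others within 5 kb were both FOXA1 peaks.

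The FOXA1 peaks lay over the end of the gene and beyond it. The strongest (chr14:38056990-38058130), annotated 1 to 2 kb downstream of a gene end, held 32 tags (21.9 to 45.2) at 7.28-fold with a −log10 p of 9.31 and an FDR of 4.61%. Only 1.23% of all peaks scored at least as high by p, and 1.24% of all peaks had an FDR of at most 5%. This FDR is close to the limit. A neighbouring peak (chr14:38055209-38056838) was named for TTC6, the next gene, although it was annotated 2 to 3 kb downstream of a gene end, and held 46 tags (33.7 to 61.4) over 1630 bp at 5.82-fold with an FDR of 1.06%. Among all peaks 1.06% had as many tags. A pair of peaks in intergenic sequence followed, at 7.06-fold with 15 and 11 tags, and a peak of 10 tags lay just after the gene's end at 5.3-fold. With peaks at most 1 kb apart joined, these 5 formed a run of 5114 bp with 114 tags (chr14:38053486-38058599), of which 4319 bp were covered. Only 2 of the 64448 runs made that way from the whole list held 5 peaks, 10 held 4 and 96.1% held 1. The other 2 FOXA1 peaks, in the 3′ UTR (16 tags, 4.24-fold) and in the promoter class (14 tags, 4.48-fold), formed a separate run of 1330 bp, and both had an FDR of 48.0%. No FOXA1 peak overlapped the listed TSS, and a weak peak upstream of it (11 tags, FDR 43.9%) was named for TTC6. The copy number of the locus and the input reads under it were not analysed here, so their part in this pattern was not tested.

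**Figure D3:**
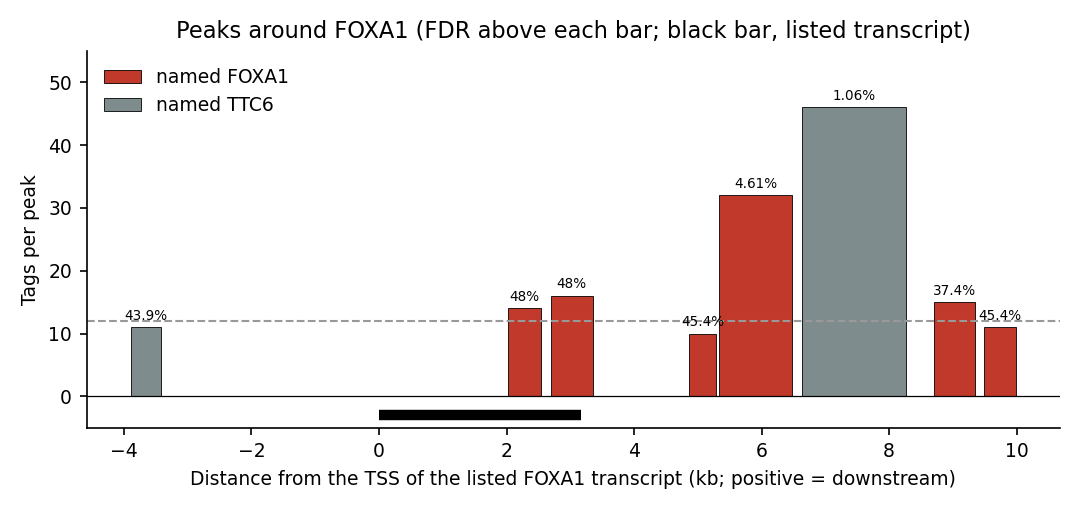
Tags per peak (bar height) against distance from the TSS of the listed FOXA1 transcript in kb, positive downstream, with bar widths to scale, red for peaks named FOXA1, grey for peaks named TTC6, and the FDR above each bar. The dashed line is the median of 12 tags over all peaks, and the bars of 32 and 46 tags stand side by side beyond the transcript's end.

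GATA3, the transcription factor that maintains luminal identity, had 2 peaks, both intergenic and beyond its 3′ end. The nearer one (chr10:8131691-8132162) lay 31329 bp from the listed TSS with 12 tags and 8.77-fold, a fold enrichment that 3.82% of peaks reached, and an FDR of 39.5%. The second lay 45804 bp away with 12 tags, 5.82-fold and an FDR of 48.1%. No peak of the list, under any name, fell between chr10:8057647 and the first of these, a stretch of 74.0 kb that holds the listed GATA3 transcript. A peak-free stretch this long or longer made up 15.8% of the stretches between neighbouring peaks, whose median was 25.7 kb. This share counts stretches and not genes, and a longer stretch is likelier to hold any given gene.

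XBP1, a secretory stress factor induced by oestrogen, had 1 peak. It held 16 tags (9.15 to 26.0) at 5.46-fold with an FDR of 44.2% and was annotated within 1 kb downstream of the gene's end (chr22:29189826-29190414). SPDEF, an ETS factor of secretory luminal cells, had 2. The intronic one (chr6:34518569-34519550, deposited as intron 5 of 5) held 22 tags, more than most peaks, at only 4.35-fold, and the one after the gene's end held 14 tags at 5.46-fold, with FDRs of 45.4% and 45.5%. The deposited intron number may run against transcription, as it does for PGR. The nearer edge of this peak lay 4541 bp inside the 18513 bp transcript, toward its start. Neither XBP1 nor SPDEF had a peak of the promoter class.

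GREB1, an early oestrogen response gene and receptor cofactor, had 3 peaks of 10 to 12 tags. The promoter-class peak (chr2:11685647-11686092) lay 2796 bp inside ENST00000381483 with 12 tags, 5.6-fold and an FDR of 40.6%. A peak on exon 24 of 33 had 7.06-fold with 10 tags and one in intron 23 of 32 had 5.3-fold with 11 tags. Another peak inside the listed transcript span (13 tags, 5.82-fold, FDR 44.2%) was named for the small RNA pseudogene RNA5SP85. The gene before GREB1 on the chromosome is E2F6, which encodes a repressor found with a variant Polycomb complex, and its promoter peak was far stronger, with 83 tags, 13.99-fold and an FDR of 0 (chr2:11605418-11606495).

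**Figure D4:**
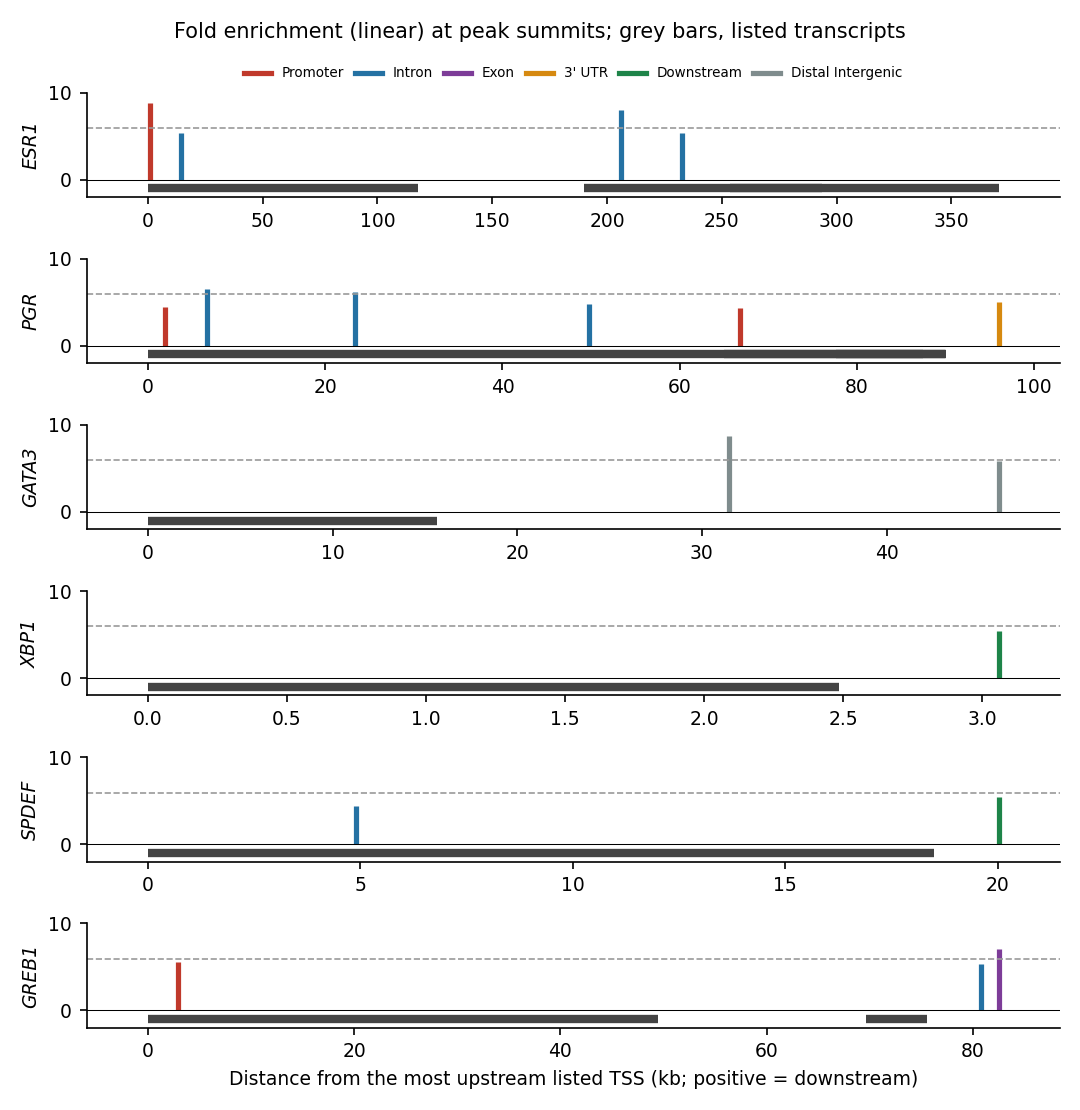
Fold enrichment (linear, vertical) at the summit of each peak against distance in kb from the most upstream listed TSS, positive downstream, for ESR1, PGR, GATA3, XBP1, SPDEF and GREB1, with listed transcripts as dark bars and the list's median of 5.95 dashed. The tallest lines are the ESR1 promoter peak of 8.83 and the intergenic GATA3 peak of 8.77.

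No peak was given to ERBB2 or ERBB3, and none lay in the stretches of chromosome that hold them. In RefSeq order ERBB2 lies between NEUROD2 and GRB7. The stretch from the last NEUROD2 peak to the first GRB7 peak (chr17:37762898-37894784) held 0 peaks over 132 kb, and 4.80% of stretches between neighbouring peaks were that long. Besides ERBB2 it holds 6 protein-coding genes without a peak, PPP1R1B, STARD3, TCAP, PNMT, PGAP3 and MIEN1. GRB7, an adaptor of ERBB receptors that is often amplified with ERBB2, had a peak over its TSS with 18 tags, 6.74-fold and an FDR of 26.3%. A little farther on, the lymphoid gene IKZF3 had a TSS peak of 144 tags and 50.3-fold, with an FDR of 0. ERBB3 lay likewise in a stretch of 117 kb between the peaks of RAB5B and PA2G4 (chr12:56380560-56497438), a length that 6.40% of stretches reached. As for GATA3, these shares count stretches, and the share of genes lying in stretches this long was not computed. No listed peak had fewer than 9 tags. Tags outside peaks were not analysed here, so the list gives no value for JARID2 at these genes and does not show that it was absent.

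A wider list held 39 genes outside the 9, chosen by name, mostly as luminal or oestrogen pathway genes. It also holds ERBB4 and EGFR, relatives of ERBB2 and ERBB3, which count in its shares, so it is not purely a luminal list. Its genes were not checked for expression in luminal cells. Any peak was given to 30 of them (76.9%), where 56.3% of protein-coding genes had one, and a promoter-class peak to 19 (48.7%), where 33.1% did. Within the 1 kb bin 11 of 39 remained, where 22.3% of protein-coding genes did. At a −log10 p of at least 5, 8 of the 39 had any peak, where 18.3% of protein-coding genes did. At an FDR of at most 20%, 3 of the 39 had one, where 8.03% of protein-coding genes did. The median of their highest promoter fold enrichment was 6.18, the same as over all genes with one. The corresponding median for the 4 of 9 luminal genes above was 5.04. Among the highest were the prolactin receptor gene PRLR at 7.68 (FDR 45.7%), the epithelial ETS factor gene ELF3 at 7.28 (FDR 40.8%) and TFAP2C, a transcription factor of luminal cells, at 6.99 with 33 tags and an FDR of 18.6%. Only CCND1, the cyclin D gene that luminal cells rely on, had a peak at an FDR of at most 5%, which 3.01% of protein-coding genes reached. The CCND1 peak was intergenic, with 41 tags, 8.42-fold and an FDR of 1.01%. Of the related receptor kinase genes, ERBB4 had 9 peaks, a number that 2.33% of protein-coding genes reached, with a lowest FDR of 37.2% and a longest listed transcript of 1163120 bp. EGFR had 3 peaks, which 19.1% of genes reached, with a lowest FDR of 34.3% and a longest listed transcript of 100251 bp. Both were chosen after their values were seen.

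Genes of the opposite, basal lineage had promoter-class peaks at 12 of 30, where 33.1% of protein-coding genes had one, and any peak at 19 (63.3%), where 56.3% did. The median of their highest promoter fold enrichment was 5.82, against 6.18 over all genes with one. At a −log10 p of at least 5, 8 of the 30 had any peak, where 18.3% of protein-coding genes did. At an FDR of at most 20%, 5 of the 30 had one, where 8.03% of protein-coding genes did. LAMA3, a laminin chain of the basement membrane, was the only one with an FDR of at most 5%, which 3.01% of protein-coding genes reached. Its strongest promoter peak had 38 tags, 14.22-fold and an FDR of 0. CDH3 (P-cadherin) followed with 7.95 and an FDR of 19.5%, then VIM (vimentin) with 6.61 and ITGB4 (an integrin of hemidesmosomes) with 6.14. Against the 4 of 9 luminal genes (44.4%) and 19 of 39 in the wider luminal list, no test was made.

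**Figure D5:**
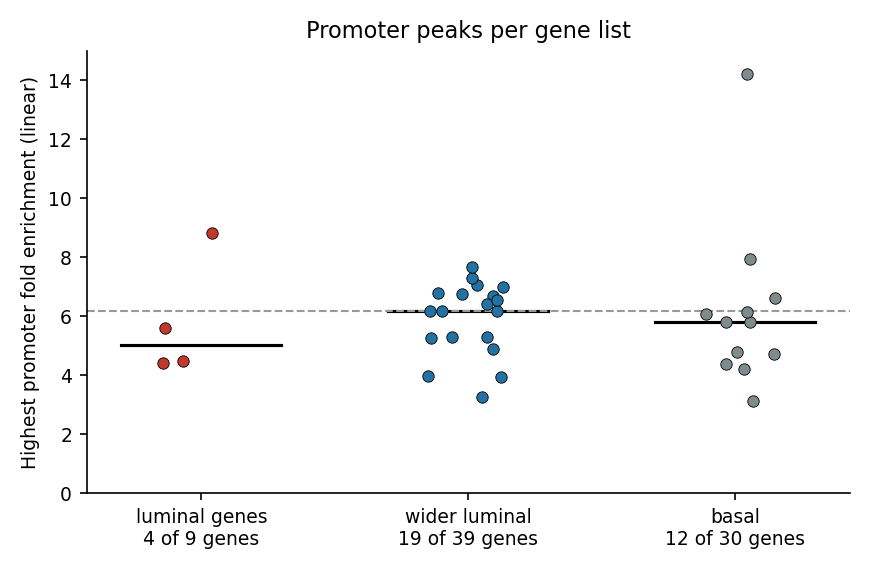
Highest promoter fold enrichment per gene (linear) for the 4 of 9 luminal genes, 19 of 39 wider luminal genes and 12 of 30 basal genes with a promoter-class peak, with the list's median as a black line and the median of 6.18 over all protein-coding genes with such a peak dashed. The single point above 14 is LAMA3, and the highest point of the 9 luminal genes is ESR1 at 8.83.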

How the data were processed

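The series holds 1 JARID2 ChIP library and 1 input library of MDA-MB-231 cells, and the authors' annotated peak list of the ChIP library was analysed. Formaldehyde-fixed, sonicated chromatin was precipitated and made into libraries with a transposase kit, per the labels' protocols. The submitters' processing notes name the hg19 build and 5 tools (ChIPseeker, MACS2, MACS, Bowtie 0.12.8 and bcl2fastq), without settings. Tags are deposited as a raw count in each peak. Fold enrichment is deposited as a linear ratio over the caller's background and the FDR as a percent, per the file headers. One deposited score has no readable header. Its position in the table and its minimum are those of 10 times −log10 p, and it was used as such. Deposited distances to the TSS are in bp.

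Members were taken by symbol, and all their peaks are given. The genes, lists and thresholds were chosen with earlier results of these data known. Of the other 2 lists, the 4 genes of highest promoter fold enrichment and any gene at an FDR of at most 5% are named, together with the other genes whose names peaks at a member carry, neighbouring genes and, chosen after their values were seen, ERBB4 and EGFR. A gene that this rule picks is not reported here. Protein-coding genes and their order came from RefSeq GRCh38.p14, matched by symbol or by a synonym of 1 gene. That table's start coordinates were used to order the genes, and no peak position or stretch length was taken from them. Intervals (95%) were Poisson for tags and Clopper-Pearson for shares. They cover counting error only, since PCR copies are not independent molecules and neighbouring peaks of 1 gene are not independent draws. The library depth is unknown. Functions were tested on simulated data. Python 3.11.15, pandas 2.3.3, numpy 2.4.6, SciPy 1.17.1 and matplotlib 3.10.9 were used. No genome sequence of hg19 was used here, so peak sequences are not shown.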

Additional observations from a re-analysis of the deposited data

How the results depend on the processing

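The counts of luminal genes and of their peaks depended on how strong a peak had to be. Of 7 genes with any peak, 1 remained at a score of at least 50 (−log10 p of 5), at an FDR of at most 20% and at an FDR of at most 5%, and 4 remained in the highest 25% of peaks by tags and 4 by fold enrichment. Over all protein-coding genes, 18.3% had a peak at that score, 8.03% at an FDR of at most 20% and 3.01% at 5%. Of 4 genes with a promoter-class peak, 0 remained at that score and at either FDR limit, and 1 remained in the highest 25% by tags, in the highest 25% by fold enrichment and within 1 kb of the TSS. The 24 peaks fell to 1 at that score and at either FDR limit, 8 by tags, 7 by fold enrichment, and 14 when taken by overlap with the listed transcripts. The median fold enrichment of 5.46 became 7.28 at that score, where it is the value of 1 peak. The wider luminal list, 19 genes, gave 6 at that score, 4 by fold enrichment and 11 within 1 kb, and the basal list, 12 genes, gave 4 at that score and 2 by fold enrichment. Shares over all protein-coding genes were not computed for the highest 25% of peaks or for promoter-class peaks at that score or either FDR limit. Whether the counts at those settings differ from other genes is therefore not shown. Merging peaks within 1 kb, leaving out the FOXA1 peaks and measuring to the nearer peak edge, the last 2 chosen after the data were examined, each left the counts they were applied to within 1.5 times. No paired analysis was possible because there is 1 library per group. The 10 to 32 tags per peak limit what can be told apart.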
